A study of Rattus norvegicus with 20 samples.

Results

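These data compare sprouting with non-sprouting neurons from the cortex of the same rats after a stroke, at the time point labelled day 7. The 10 arrays whose titles carry day 7 were taken, out of 20 in the series, and they hold 5 animals with 2 dye-swapped arrays each. Both groups came from young rats, aged 2 months. Cholera toxin B, a tracer that axon endings take up and carry back to the cell body, was injected into cortex beside the infarct in 2 colours, Alexa 488 first and Alexa 647 at the same spot after a survival period of 7 days. Another 7 days later about 300 neurons of each class were cut out by laser microdissection, and their total RNA went through 2 rounds of T7 amplification. All neurons of both classes therefore come from stroke brains that received both tracers, and the comparison holds no neuron of an uninjured animal. The labels name the classes sprouting and non-sprouting, and the pattern of tracer that defines each class is not given in the sources used here. The other 10 arrays hold a separate cohort of 5 animals at day 21 and serve below only to show where day 7 differs.

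After a stroke, neurons in the surviving cortex around the infarct can grow new axon branches into neighbouring areas, a process called axonal sprouting. A growing axon needs a growth cone, new cytoskeleton and membrane, receptors that read guidance and growth factor cues, and a change in transcription in the cell body. Myelin-associated inhibitors and the extracellular matrix around the injury hold this growth back through receptors that act on the cytoskeleton of the growth cone. The comparison asks which genes differ between pools of neurons labelled sprouting and non-sprouting from the same animal.

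Each array carried RNA of both classes of 1 animal, 1 in each dye, so each gene has a ratio of sprouting over non-sprouting neurons. Ratios are given on the log2 scale, where 0 is no difference, 1 is 2-fold higher in sprouting neurons and -1 is 2-fold lower. The ratio of an animal is the mean of its 2 arrays, and means are given ± SD over the 5 animals. Median signals ran from 98.7 to 305.3 in Cy5 and from 133.9 to 267.9 in Cy3. Before any filter, between 67.1% and 94.6% of probes lay well above background in sprouting neurons and between 75.1% and 91.1% in non-sprouting neurons. After the filters 32381 genes were tested, 14212 of them with a gene symbol. The labelled cell type was checked against markers. Of the general neuron markers 8 of 8, among them Snap25, Map2, Rbfox3 and Stmn2, were well above background on all 10 arrays in both classes. Of the projection neuron markers measured, Camk2a, Nrn1, Neurod2 and Slc17a6 were so on all 10 arrays in both classes. The vesicular glutamate transporter Slc17a7 was so on only 5 of 10 arrays in each class. Markers of cells that are not projection neurons also gave signal in both classes: 8 of 8 astrocyte, 8 of 8 oligodendrocyte, 8 of 8 microglia, 7 of 7 endothelial and mural, 3 of 3 blood and 7 of 8 interneuron markers measured were marked as above background in each class on 5 or more of the 10 arrays, and none was at 0. Of all genes tested, 30725 of 32381 met the same mark, so these counts do not set the markers apart. Fewer cells of a type and less RNA per cell cannot be told apart in these samples.

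No gene passed an adjusted p under 0.05 at day 7 in the limma fit of the 5 animal ratios against 0 (0 of 32381 genes, 0%). At an unadjusted p under 0.05 there were 2276 genes, which is 7.03% of those tested, against 1619 expected by the threshold alone. They split into 1145 higher in sprouting neurons (3.54%) and 1131 lower (3.49%). The split rests on the scaling: with each array centred on its median in place of loess, 508 were higher and 1914 lower. Where median centring moves a gene's mean by over 1.5 times, the value so obtained stands beside a mean printed below as centred. The means were compared for 124 genes: the first 20, list genes at an unadjusted p under 0.05 and the extremes of each animal. Of the 124 genes 45 moved so far, and 7 of the first 20. Other genes named below, such as Bax, Gsk3a, Sgk1, Eif4e, Scn3a, Scn3b and Cacna1d, were not compared. The ratio kept a single sign in 5 of 5 animals for 1136 genes on the higher side (3.51%) and 1680 on the lower side (5.19%). On all 10 arrays it was positive for 305 genes (0.942%) and negative for 277 genes (0.855%). Differences of this kind were small. The median size of the ratio was 0.25 among the 305 genes and 0.21 among the 277, with a largest size of 0.82 and 0.93.

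The animals differed from each other far more than their 2 arrays did. Across genes, the ratios of the 2 dye-swapped arrays of an animal correlated at r from 0.60 in animal 1 to 0.74 in animal 3. Ratios of different animals correlated at r = 0.44 for animals 4 and 5, the pair with the highest value, and at r between -0.11 and 0.18 for the other 9 pairs. These values are across 32381 genes, which are not independent, and both arrays of an animal share their amplified RNA. An animal had between 53 genes (animal 2) and 206 genes (animal 5) past 2-fold in either direction, and of the 582 such values 579 went the same way past 0 on both arrays.

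Among named genes, the 10 higher in sprouting neurons had means between 0.20 and 0.67. None passed the adjusted threshold, and each was chosen for a single sign on all 10 arrays and the smallest p, so the spread given is that of selected genes. Stim2, a calcium sensor in the endoplasmic reticulum membrane that opens store-operated channels, had ratios of 0.44, 0.33, 0.32, 0.53 and 0.48 in animals 1 to 5. All 5 lay within a narrow band, with a mean of 0.42 ± 0.09 or 1.34-fold (limma adjusted p = 0.479), while a second probe of Stim2 gave 0.10 ± 0.14. App, the amyloid precursor protein, a membrane protein of axons and synapses, had 0.31, 0.36, 0.46, 0.43 and 0.58, with a mean of 0.43 ± 0.10 (limma adjusted p = 0.479; 0.26 centred). Rasgrp1, an exchange factor that activates Ras in response to calcium and diacylglycerol, had 0.37, 0.32, 0.40, 0.53 and 0.63, with a mean of 0.45 ± 0.13 (limma adjusted p = 0.479). Both genes were lowest in animals 1 and 2 and highest in animal 5. Slc24a2, a sodium, calcium and potassium exchanger of neurons, had 0.64, 0.45, 0.68, 1.02 and 0.58. It had the largest mean of the 10, at 0.67 ± 0.21 or 1.60-fold (limma adjusted p = 0.479), and only animal 4 went past 2-fold.

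The other 6 higher genes had means between 0.20 and 0.51. Prrc2c, an RNA-binding protein of stress granules, had 0.64, 0.51, 0.47, 0.64 and 0.31 on its brightest probe (mean 0.51 ± 0.14), and 0 ± 0.05 on a second probe. Trim2, a ubiquitin ligase that acts on neurofilament light chain in axons, had 0.22, 0.19, 0.21, 0.26 and 0.26 (mean 0.23 ± 0.03), and a second probe gave the same mean with a wider spread (0.23 ± 0.41). The mean of Trim2 was 0.02 centred and 0.22 with the scanner's processed signals. Tenm4, a teneurin, a transmembrane protein of neuronal connection, had 0.20, 0.24, 0.23, 0.20 and 0.20 (mean 0.21 ± 0.02), and a second probe gave 0.01 ± 0.07. The 5 animals of Tenm4 lay closer together than those of any other of the 20 named genes. The last 3 were Adm, the vasodilator peptide adrenomedullin (0.30 ± 0.08), the zinc finger gene Flywch1 (0.23 ± 0.05, 0.14 centred) and Nup58, a nuclear pore protein (0.20 ± 0.03, 0.10 centred, with -0.04 ± 0.16 on a second probe).

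The genes lower in sprouting neurons include a serotonin receptor, a cortical transcription factor and a protein of the mitochondrial calcium channel. Htr7, the serotonin 7 receptor, which raises cyclic AMP, had ratios of -0.40, -0.81, -0.37, -0.99 and -1.19. It was below 0 on all 10 arrays, mildly in animals 1 and 3 and strongly in animals 2, 4 and 5, with a mean of -0.75 ± 0.36 (1.68-fold lower, limma adjusted p = 0.616). A second, dimmer probe of Htr7 gave -0.05 ± 0.05. Lhx2, a LIM homeobox factor of cortical progenitors and upper layer neurons, had -0.17, -0.61, -0.50, -0.66 and -0.42, with a mean of -0.47 ± 0.19 (1.38-fold lower, limma adjusted p = 0.564). Only animal 1 stood near 0. Sntg2, a syntrophin of the dystrophin-associated complex, had -0.42, -0.31, -0.40, -0.11 and -0.37, with a mean of -0.32 ± 0.12 (limma adjusted p = 0.577). Here animal 4 was the weakest.

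The other 7 lower genes had means between -0.19 and -0.26. Micu2, a regulator of the mitochondrial calcium uniporter, had a mean of -0.21 ± 0.05 on its brightest probe (-0.39 centred) and 0.26 ± 0.44 on another. Tm9sf2, a membrane protein of endosomes and Golgi, was at -0.26 ± 0.11 (-0.45 centred), Wdr31 at -0.25 ± 0.04, the tRNA methyltransferase gene Trmt9b at -0.21 ± 0.06, the DNA repair and proteasome shuttle gene Rad23b at -0.21 ± 0.05 (-0.41 centred) and the transporter gene Slc35f5 at -0.19 ± 0.04. Second probes of Rad23b and Slc35f5 gave -0.12 ± 0.16 and -0.01 ± 0.14. Over the 2810 genes with at least 2 probes, 59.8% had the same sign on the brightest and the next probe, with r = 0.35 across genes.

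Promoters of these genes were read for binding motifs of factors that act in injured neurons. RefSeq promoters of the GRCr8 build, running from 250 bases before to 50 after the gene start, were at hand for 17 of the 20 genes. The cyclic AMP response element was searched as TGACGTCA, the AP-1 site as TGANTCA and the GC box, which Sp and Klf factors can bind, as GGGCGG, all on both strands. No match of one motif can contain another, and a match describes letters only. Promoters are shown for the higher gene with the smallest p (Stim2), for the only named gene with an AP-1 match (Trim2) and for the lower gene with the largest mean (Htr7), with matches in capitals.
Stim2 (chr14:61217031-61217330, minus strand): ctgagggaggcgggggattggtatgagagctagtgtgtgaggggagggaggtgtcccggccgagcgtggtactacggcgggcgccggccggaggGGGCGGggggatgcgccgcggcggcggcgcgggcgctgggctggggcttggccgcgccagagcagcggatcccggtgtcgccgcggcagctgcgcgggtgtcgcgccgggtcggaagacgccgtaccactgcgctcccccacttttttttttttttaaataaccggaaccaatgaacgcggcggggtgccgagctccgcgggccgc
Trim2 (chr2:171862395-171862694, minus strand): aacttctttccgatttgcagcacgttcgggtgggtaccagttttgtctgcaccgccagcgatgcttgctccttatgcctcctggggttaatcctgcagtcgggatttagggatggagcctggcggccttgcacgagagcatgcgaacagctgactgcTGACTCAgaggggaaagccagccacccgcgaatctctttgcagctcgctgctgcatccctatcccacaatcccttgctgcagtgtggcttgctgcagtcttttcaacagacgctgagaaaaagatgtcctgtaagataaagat
Htr7 (chr1:243172999-243173298, minus strand): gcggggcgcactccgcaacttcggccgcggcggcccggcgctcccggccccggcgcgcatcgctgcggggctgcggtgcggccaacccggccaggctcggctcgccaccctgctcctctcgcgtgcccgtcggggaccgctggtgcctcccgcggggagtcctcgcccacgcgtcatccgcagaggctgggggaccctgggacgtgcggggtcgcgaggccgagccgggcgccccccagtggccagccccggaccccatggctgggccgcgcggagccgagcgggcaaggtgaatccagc
Stim2 has 1 GC box, Trim2 has 1 AP-1 match and no GC box, and Htr7 has none of the 3 motifs. Of the named genes with a promoter, 12 of 17 have a GC box and 0 of 17 a cyclic AMP element. Among genes with a single sign on all 10 arrays, the AP-1 motif was in 7 of 107 promoters on the higher side (6.54%) and 5 of 90 on the lower side (5.56%), beside 5.95% of all 11552 promoters of tested genes. The cyclic AMP element was in 3.74% and 3.33%, beside 2.60%, and the GC box in 58.9% and 61.1%, beside 52.7%. The motif shares on both sides are thus close to those of all promoters.

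Genes of the growth cone and of regeneration were about evenly divided. Of 37 tested, 18 had a positive and 19 a negative mean ratio, with a median of -0.01 beside -0.01 over all genes. With median centring the list median was -0.095. Of all 32381 genes, 14961 were on the higher side (46.2%) and 17420 on the lower, the background for each list count below. At an unadjusted p under 0.05 were 5 of 37 (13.5%, beside 7.03% of all genes). Gap43, the growth-associated protein that marks growth cones, had -0.25, -0.41, 0.02, -0.17 and -0.37, with a mean of -0.24 ± 0.17 (limma adjusted p = 0.702; -0.47 centred). Its ratio was near 0 only in animal 3 and was positive on 4 of 10 arrays; on the arrays with sprouting neurons in Cy3 alone its mean was 0.03. Klf7, a transcription factor that promotes axon growth, had -0.17, 0.56, 0.49, 0.77 and 0.46 (mean 0.42 ± 0.35), and Smad1, a transcription factor of BMP signalling, had 0.38, -0.08, 0.45, 0.44 and 0.37 (mean 0.31 ± 0.22). Each of the 2 had a single animal on the other side of 0, a different one in each case. Basp1, a growth cone protein related in function to Gap43, was above 0 in 5 of 5 animals, between 0.01 and 0.54. The injury-induced transcription factor Atf3 ran from -1.23 to 0.70 and Jun from -0.43 to 0.29, with animal 1 the highest in both.

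Receptors and ligands that steer axons showed few differences. In the guidance list 27 of 49 genes were on the higher side (median 0). At an unadjusted p under 0.05 was 1 of 49 (2.04%, below the 7.03% of all genes). That gene was Nrp1, a receptor for semaphorins and VEGF, with 0.76, 0.02, 0.22, 0.12 and 0.41 (mean 0.31 ± 0.29). Of the growth-inhibitory receptors and their effectors 17 of 28 were on the higher side (median 0.01, -0.025 with median centring). Rhoa, the small GTPase through which these receptors collapse growth cones, was above 0 on all 10 arrays, with 0.10, 0.13, 0.15, 0.19 and 0.27 (mean 0.17 ± 0.07, limma adjusted p = 0.702; 0.03 centred). Limk2, a kinase that slows actin turnover, had the opposite sign on all 10 arrays, with -0.20, -0.48, -0.37, -0.42 and -0.06 (mean -0.31 ± 0.17, limma adjusted p = 0.702). Ptprs, a receptor for chondroitin sulfate proteoglycans, was above 0 in 5 of 5 animals but only just in animals 2 and 4, at 0.04 and 0.06, against 0.99, 0.58 and 0.45 in animals 1, 3 and 5.

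Neurotrophins and growth factors had a median of -0.01, with 30 of 61 on the higher side and 5 of 61 at an unadjusted p under 0.05 (8.20%, near the 7.03% of all genes). Ntrk2, the receptor of the neurotrophin BDNF, had 0.67, 0.22, 0.20, 0.09 and 0.28 (mean 0.29 ± 0.22, 0.10 centred) and was positive on all 10 arrays. The ligand gene Bdnf itself had no common sign, at -0.08, -0.56, 0.56, -0.80 and -0.74. Pdgfa had a mean of 0.23 ± 0.11 and Tgfb3 of -0.24 ± 0.17, each with a single sign on all 10 arrays. Igf1, insulin-like growth factor, ran from -0.51 in animal 3 to 0.62 in animal 4.

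The PI3K, Akt and mTOR pathway, which carries growth factor signals to protein synthesis, had 26 of 36 genes on the higher side and a median of 0.04. At an unadjusted p under 0.05 were 7 of 36 (19.4%, beside 7.03%), 6 higher and 1 lower. Pik3r1, the regulatory subunit of PI3K, had 0.47, 0.14, 0.36, 0.53 and 0.53, with a mean of 0.41 ± 0.16 (limma adjusted p = 0.564). Gsk3b, a kinase that Akt inhibits, had 0.34, 0.18, 0.09, 0.36 and 0.31, with a mean of 0.26 ± 0.11 (limma adjusted p = 0.662; 0.10 centred). Both were positive on all 10 arrays, and Pik3cd, a catalytic subunit, was on 9 of 10 (0.13 ± 0.08, 0.20 centred). Others of the 7, named here after their values were seen, were Gsk3a (0.15 ± 0.10), Sgk1 (0.19 ± 0.19) and, on the lower side, the translation factor Eif4e (-0.20 ± 0.16).

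In Ras, Rap and ERK signalling 24 of 40 genes were on the higher side (median 0.03, and just below 0 with median centring). Beside Rasgrp1, the Rap inhibitor Rap1gap was positive on all 10 arrays, at 0.19, 0.16, 0.14, 0.33 and 0.33 (mean 0.23 ± 0.09, limma adjusted p = 0.662), and the GTPase Rap2a had a mean of 0.24 ± 0.21. Endoplasmic reticulum calcium handling had 16 of 34 genes on the higher side (median -0.007, -0.085 with median centring). Beside Stim2 stood Orai2, a subunit of the channels that Stim proteins open, with 0.11, 0.13, 0.22, 0.16 and 0.02 (mean 0.13 ± 0.07). Orai2 was positive on 8 of 10 arrays and averaged -0.01 on the arrays with sprouting neurons in Cy5 alone. In the early secretory pathway 29 of 50 genes were on the higher side, and the median of 0.014 was -0.128 with median centring. At an unadjusted p under 0.05 were 2 of 50 (4%, below the 7.03% of all genes). One was Srp72, part of the particle that brings ribosomes with secretory proteins to the membrane, with 0.45, 0.30, 0.68, 0.37 and 0.31 (mean 0.42 ± 0.16, limma adjusted p = 0.564).

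Channels and transmitter systems included genes on both sides. Among sodium, calcium and HCN channels 19 of 28 genes were on the lower side, the median was -0.05, and 6 of 28 (21.4%, beside 7.03% of all genes) were at an unadjusted p under 0.05, 5 of them lower. Cacna1b, the pore subunit of the N-type calcium channel that triggers transmitter release, had -0.51, -0.21, -0.25, -0.47 and -0.72, with a mean of -0.43 ± 0.21 (limma adjusted p = 0.639). It was negative on all 10 arrays. At day 21 its mean was 0.11 ± 0.27, and the difference between days did not pass the adjusted threshold (limma adjusted p = 0.939). Cacna1b was named for its small p at day 7, so a weaker ratio at day 21 follows in part from the choice. The beta subunit Cacnb2 had 0.01, -0.28, -0.24, -0.13 and -0.34 (mean -0.20 ± 0.14), and the sodium channel subunit Scn2b was on the higher side (0.14 ± 0.11). The other 3 lower genes, named after their values were seen, were Scn3a (-0.33 ± 0.33), Scn3b (-0.34 ± 0.35) and Cacna1d (-0.19 ± 0.16). Scn3a and Scn3b code for an alpha and a beta subunit of sodium channels, and both were above 0 only in animal 1.

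Of the potassium channels 31 of 49 were on the higher side (median 0.02, -0.01 with median centring), and 4 of 49 were at an unadjusted p under 0.05, all higher (8.16%, near the 7.03% of all genes). Kcna1, a channel of axons and their nodes, had 0.71, 0.78, -0.04, 0.59 and 0.47 (mean 0.50 ± 0.32, 0.30 centred). Kcnd2, which carries A-type current in dendrites, had a mean of 0.20 ± 0.12 (0.04 centred), and Kcnq3, an M-current subunit, of 0.24 ± 0.19 (0.05 centred), both positive on all 10 arrays with loess. Glutamate receptors and postsynaptic proteins had 16 of 43 genes on the higher side. The AMPA receptor subunit Gria1 had 0.11, 0.48, 0.61, 0.22 and 0.22 (mean 0.33 ± 0.21, positive on all 10 arrays), the metabotropic receptor Grm3 had a mean of 0.50 ± 0.40 (0.32 centred), and the adhesion protein Nlgn1 of -0.28 ± 0.24. Of the GABA receptor genes 11 of 17 were on the higher side, with a median of 0.05 that was -0.05 with median centring. That median was above 0 only in animals 1 and 3, at 0.04 and 0.21, and was -0.01 without animal 3 and 0.11 without animal 2.

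Genes of presynaptic vesicle release had 33 of 54 on the higher side, with 8 higher and 1 lower at an unadjusted p under 0.05 (16.7%, beside 7.03% of all genes). Syt11, a synaptotagmin of vesicle recycling, had 0.13, 0.26, 0.19, 0.17 and 0.11 (mean 0.17 ± 0.06, positive on all 10 arrays). Amph, which shapes membrane in endocytosis, had a mean of 0.21 ± 0.11, and Rab3a, the vesicle GTPase, of 0.25 ± 0.19. All 3 were above 0 in 5 of 5 animals. The list median was 0.03 and just below 0 with median centring, and animal 3, at 0.11, was the only one past 0.02.

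Neuropeptides and their receptors were mostly on the lower side, 29 of 43, with a median of -0.05. It was below 0 in 5 of 5 animals, as was the median of all genes, and 3 of 43 were at an unadjusted p under 0.05 (6.98%, near the 7.03% of all genes). Vip, a peptide of a class of interneurons, had -0.28, -1.60, -0.52, -0.32 and -1.94, with a mean of -0.93 ± 0.78 (limma adjusted p = 0.702). All 10 arrays were below 0, but animals 2 and 5 were far lower than the rest. The neuropeptide Y receptor Npy5r had -0.09, -0.47, -0.30, -0.07 and -0.58 (mean -0.30 ± 0.22) and was likewise lowest in animals 2 and 5. Interneuron markers as a list were divided, with 12 of 23 on the higher side and 11 on the lower. Gad2, which makes GABA, had -0.22, 0.34, 0.47, 1.13 and 0.73, and the peptide Sst had 0.65, -0.24, -1.45, 0.21 and -0.28. Among monoamine and acetylcholine receptors, 22 of 40 were on the lower side. Beside Htr7 stood the muscarinic receptor Chrm3 (-0.30 ± 0.26, -0.47 centred), and with the opposite sign the serotonin receptor Htr1a, which lowers cyclic AMP (0.14 ± 0.09, above 0 in 5 of 5 animals).

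Markers of deep cortical layers were mostly on the higher side, while those of upper layers were divided. Deep layer markers had 16 of 19 genes on the higher side and a median of 0.11, and the list median was above 0 in each animal, between 0.04 and 0.07. At an unadjusted p under 0.05 were 4 of 19 (21.1%, beside 7.03% of all genes), all higher. Bcl11b, the transcription factor Ctip2 of layer 5 output neurons, had 0.59, 0.09, 0.31, 1.30 and 1.04, with a mean of 0.67 ± 0.50 (limma adjusted p = 0.702), positive on all 10 arrays. Ldb2 had 0.18, 0.30, 0.42, 0.28 and 0.05 (mean 0.25 ± 0.14, 0.16 centred), and Etv1, a layer 5 transcription factor, had 0.23, 0.32, 0.68, 0.05 and 0.05 (mean 0.26 ± 0.26). Fezf2, which specifies subcortical projection neurons, was above 0 in 4 of 5 animals, at -0.20, 0.43, 0.76, 0.19 and 0.26. Which animal was highest differed from gene to gene: Bcl11b peaked in animal 4, Etv1 and Fezf2 in animal 3.

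Upper layer markers had 10 of 17 genes on the lower side, beside 17420 of 32381 of all genes, and a median of -0.03. In animals 1 to 5 the list median was -0.028, 0.013, -0.068, -0.053 and 0.045. At an unadjusted p under 0.05 were 2 higher and 2 lower (23.5%, beside 7.03%). The 2 lower ones were Lhx2, given above, and Lamp5, with -0.84, -0.06, -0.54, -0.41 and -1.16 (mean -0.60 ± 0.42, limma adjusted p = 0.702), negative on all 10 arrays. Pou3f2, the Brn2 factor of upper layers, was on the other side, at 0.07, 0.31, 0.07, 0.31 and 0.15 (mean 0.18 ± 0.12). Cux1 and Cux2, homeobox genes that mark upper layers, stayed between -0.11 and 0.13. Of the cortical development factors Nr2f1 had a mean of -0.24 ± 0.21 (-0.47 centred), below 0 in 5 of 5 animals, and Nfix of 0.23 ± 0.21 (0.05 centred). The layer in which the cells were captured is not given in the labels, and its part in these ratios was not tested.

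The cytoskeleton list had 26 of 41 genes on the higher side, with 7 higher and 0 lower at an unadjusted p under 0.05 (17.1%, beside 7.03% of all genes), but its median of 0.02 became -0.08 with median centring. Dync1li1, a dynein chain of retrograde transport, had 0.31, 0.07, 0.08, 0.26 and 0.34 (mean 0.21 ± 0.13). The neurofilament Nefl had -0.05, 0.34, 0.30, 0.27 and 0.16, and the kinesin Kif5c, a motor of anterograde transport, had -0.06, 0.26, 0.28, 0.73 and 0.78. In both only animal 1 was below 0, and the mean of Nefl, 0.21 ± 0.16, was 0.10 centred. The dystrophin-associated complex had 13 of 17 genes on the lower side, among them Sntg2 and Agrn, the synapse-organising proteoglycan agrin (-0.16 ± 0.14, -0.30 centred), with Dtna, alpha-dystrobrevin, on the other side (0.24 ± 0.23). Chromatin regulators had 25 of 37 on the higher side and a median of 0.04, with 4 of 37 higher at an unadjusted p under 0.05 (10.8%, beside 7.03%). The deacetylase gene Sirt1 had 0.13, 0.17, 0.25, 0.13 and 0.05 (mean 0.15 ± 0.07, positive on all 10 arrays), and the methyltransferase Kmt2a had a mean of 0.09 ± 0.05 (0.14 centred).

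**Figure D1:**
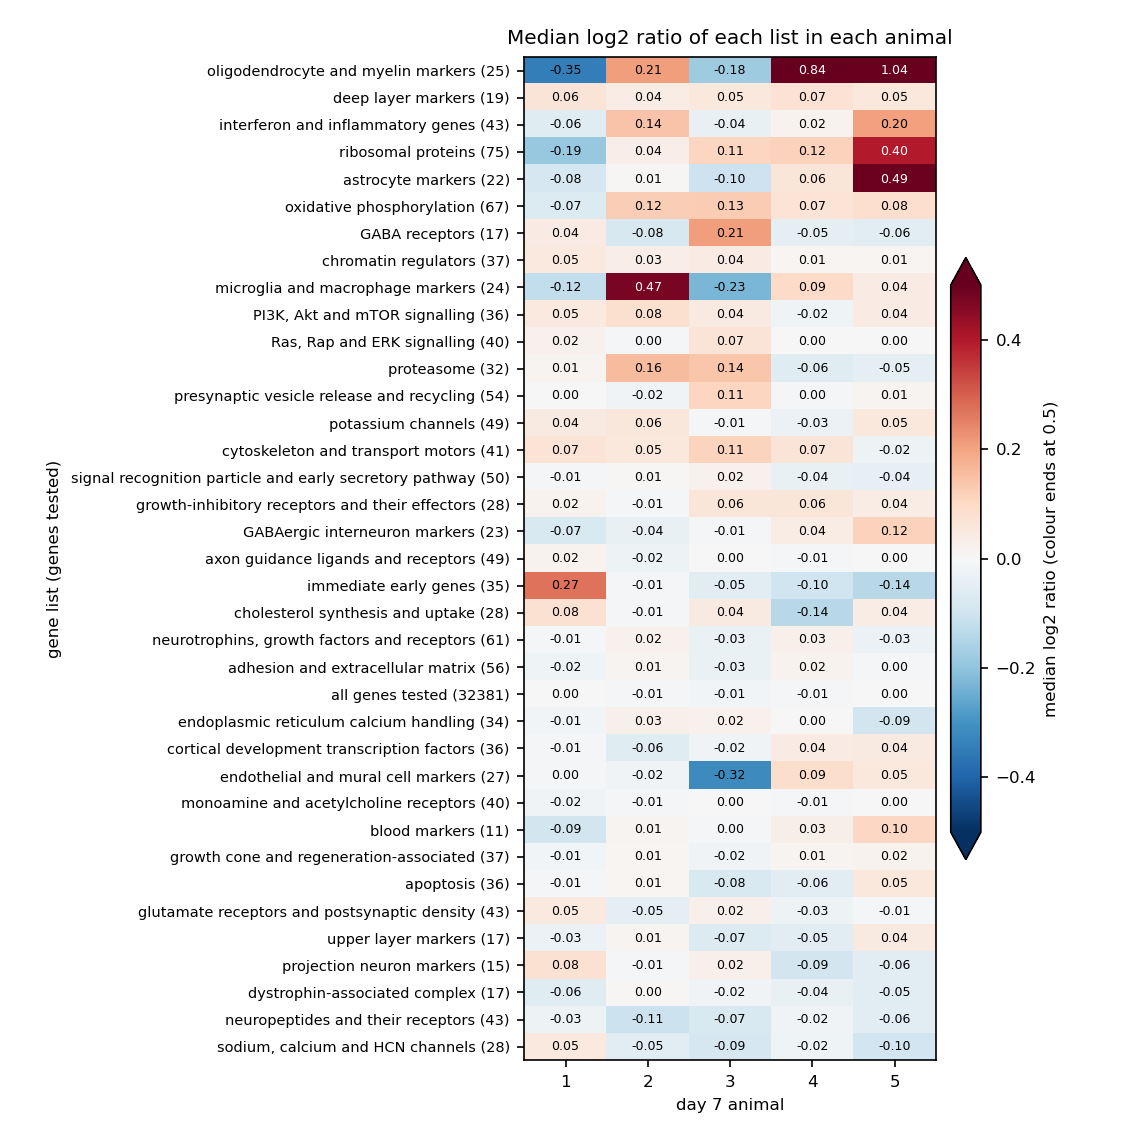
Median log2 ratio of sprouting over non-sprouting neurons for each gene list (rows, with the number of genes tested) in each day 7 animal (columns); red is higher and blue lower in sprouting neurons, and the colour scale ends at 0.5. Deep layer markers are red in all 5 animals at low values, while the myelin list runs from -0.35 in animal 1 to 1.04 in animal 5.

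Lists of other cell types differed from animal to animal. Oligodendrocyte and myelin markers had medians of -0.35, 0.21, -0.18, 0.84 and 1.04 in animals 1 to 5. Sprouting samples were thus lower in animals 1 and 3 and higher in animals 2, 4 and 5, and the list median of 0.29, with 22 of 25 genes on the higher side, became 0.12 without animal 5 and 0.19 without animal 4. Mbp, the myelin basic protein, had -0.95, 0.54, 0.42, 1.86 and 1.85 and Mobp, another myelin protein, had -1.03, 0.19, -0.02, 1.77 and 2.22. No gene of this list kept a single sign in all 5 animals, beside 3.51% of all genes on the higher side and 5.19% on the lower. At an unadjusted p under 0.05 were 2 of 25 (8%, near the 7.03% of all genes), Cnp (0.25 ± 0.26) and Mal (0.47 ± 0.52). Animals 4 and 5, which were both high in myelin genes, were also the pair with the highest correlation.

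Microglia and macrophage markers had medians of -0.12, 0.47, -0.23, 0.09 and 0.04, with animal 2 the highest. Of these markers 0 of 24 were at an unadjusted p under 0.05, beside 7.03% of all genes. Astrocyte markers had -0.08, 0.01, -0.10, 0.06 and 0.49, with animal 5 alone above 0.06. The channel-associated gene Mlc1 of astrocytes was above 0 in 5 of 5 animals (0.27 ± 0.22). Endothelial and mural markers were near 0 except in animal 3, at -0.32. Interferon and inflammatory genes had 33 of 43 on the higher side and a median of 0.10, which was 0.04 without animal 5. At an unadjusted p under 0.05 was 1 of 43 (2.33%, below the 7.03% of all genes), Ifit2 (0.18 ± 0.16). The list had medians of 0.14 in animal 2 and 0.20 in animal 5 and between -0.06 and 0.02 in the others. Rsad2 and Cxcl10, both induced by interferon, were highest in these 2 animals as well, at 1.31 and 1.59 and at 1.46 and 1.66. The part of these cells in the neuronal ratios above was not tested.

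Ribosomal protein genes had 66 of 75 on the higher side and a median of 0.10, with medians of -0.19, 0.04, 0.11, 0.12 and 0.40. The list median was -0.12 with median centring and 0.02 without animal 5. At an unadjusted p under 0.05 were 5 of 75 (6.67%, near the 7.03% of all genes). Rpl3 had 0.09, 0.39, 0.72, 0.10 and 0.40 (mean 0.34 ± 0.26, 0.15 centred). Genes of oxidative phosphorylation had 50 of 67 on the higher side and a median of 0.05, which median centring turned to -0.15. Ndufb5, of complex I, was positive on all 10 arrays (0.13 ± 0.07) and at -0.08 with median centring.

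**Figure D2:**
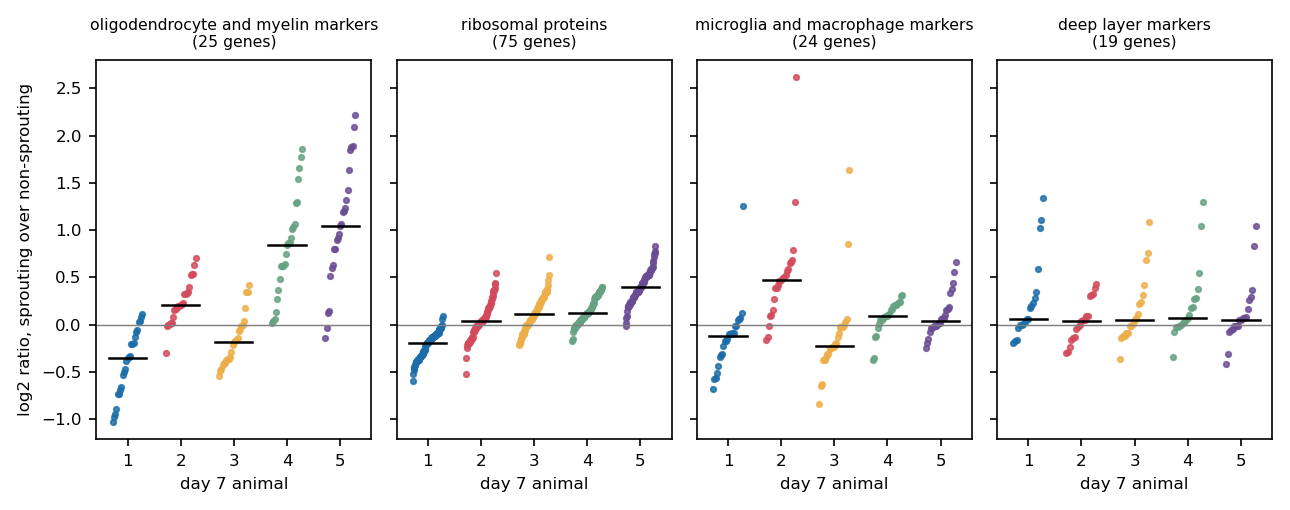
Log2 ratio of every tested gene (dots) of 4 lists in each day 7 animal, sorted within an animal, with the list median as a black line. Most myelin, ribosomal and microglia genes of an animal lie on one side of 0, with myelin medians from -0.35 to 1.04, while most deep layer markers stay near 0 and a few lie far above it.

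The 3 highest and 3 lowest genes of each animal, taken among named genes well above background in both channels and of the same sign on both arrays, were 29 different genes, and only Vip, among the lowest in animals 2 and 5, appeared more than once. In animal 1 the highest were Ucma (1.81), the growth factor Igf2 (1.56) and Cyp26b1, which breaks down retinoic acid (1.55), and the lowest were A2m (-1.53), the chemokine Ccl2 (-1.40) and Hacd2 (-1.16). Immediate early genes were also on the higher side in animal 1 alone, with a list median of 0.27 against -0.14 to -0.01 in the others. Animal 2 had the antigen presentation genes Cd74 (2.62) and RT1-Da (2.52) and complement C3 (2.01) at the top, and the interneuron peptides Crh (-2.16) and Vip (-1.60) and Aldh3b1 (-1.30) at the bottom. In animal 3 the highest were Spp1, osteopontin (1.64), Ldha of glycolysis (1.46) and Prss23 (1.29), and the lowest were the peptide gene Cartpt (-2), the VEGF receptor Kdr (-1.86) and Podxl (-1.71).

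Animal 4 had the myelin genes Mbp (1.86) and Mobp (1.77) and the phosphatase Ptpn11 (1.79) at the top, and the peptide gene Grp (-1.61), the monoamine transporter Slc22a3 (-1.55) and the activity-induced factor Egr2 (-1.39) at the bottom. In animal 5 the highest were Anxa1 (3.27), the peptide neurotensin, Nts (2.88), and Apod (2.40), and the lowest were Vip (-1.94), Dse (-1.72) and the tachykinin Tac3 (-1.65). Of these 29 genes only Vip had the same sign in all 5 animals. Cartpt shows how far animals could disagree: it was at -0.33, 1.75, -2, 0.04 and 0.71, with a mean of 0.03 ± 1.38 (-0.09 centred).

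The same ratios were set against the 5 animals of day 21, a separate cohort. No gene of 32376 passed an adjusted p under 0.05 for day 21 minus day 7 in limma (0%). Among the 20 named genes, 8 were at an unadjusted p under 0.05 for this difference, beside 1319 of all 32376 genes (4.07%). The 20 were chosen on the day 7 ratios that enter the difference, so nothing is read from this count, and a smaller ratio at day 21 follows in part from the choice. Htr7 was at -0.75 ± 0.36 at day 7 and 0.04 ± 0.21 at day 21, a difference of 0.79 (limma adjusted p = 0.939). Lhx2 was at -0.47 ± 0.19 and -0.01 ± 0.23, a difference of 0.46 (limma adjusted p = 0.939), and Wdr31 at -0.25 ± 0.04 and 0.08 ± 0.23. These 3 had day 21 means close to 0. Stim2 was at 0.42 ± 0.09 and 0.16 ± 0.21, and Rasgrp1 at 0.45 ± 0.13 and 0.13 ± 0.21, each above 0 in 4 of 5 animals of day 21. Other genes had nearly the same mean on both days, as Trim2 (0.23 and 0.22, with loess) and Tm9sf2 (-0.26 and -0.24). The list medians at day 21 were 0.02 for deep layer, -0.03 for myelin, -0.04 for upper layer, -0.15 for astrocyte and -0.08 for endothelial and mural markers; the difference of list medians between the days was not tested.

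**Figure D3:**
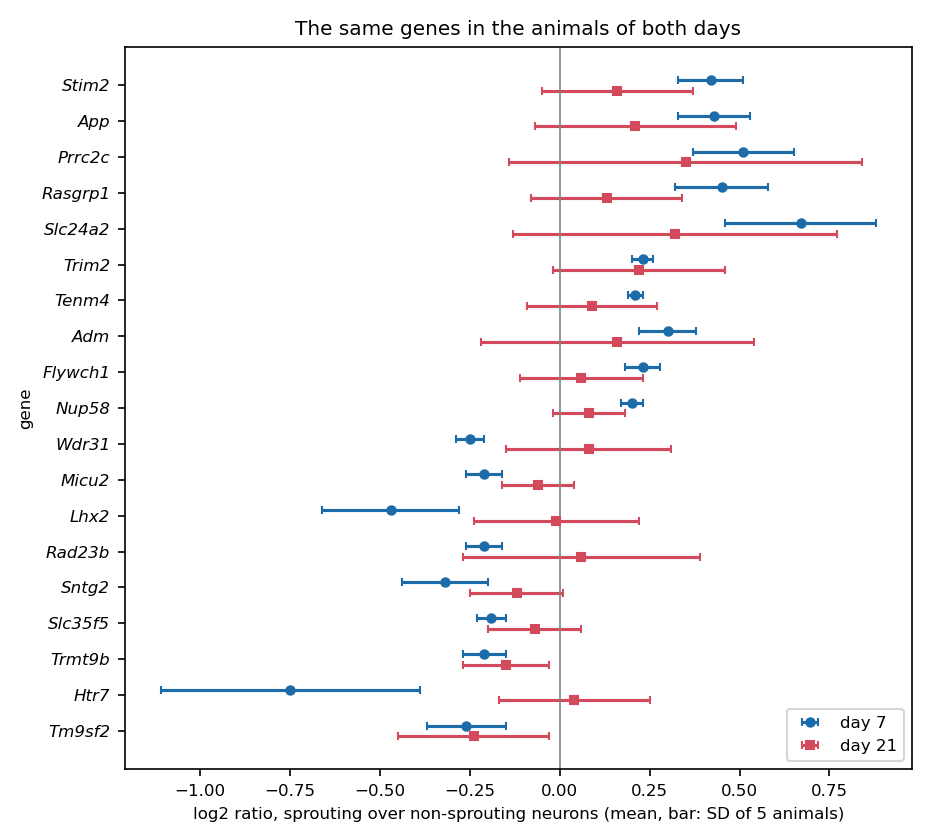
Mean log2 ratio of sprouting over non-sprouting neurons for 19 of the 20 named genes in the 5 day 7 animals (circles) and the 5 day 21 animals (squares), with bars of 1 SD. Htr7 and Lhx2 lie at -0.75 and -0.47 at day 7 and next to 0 at day 21, while Trim2 and Tm9sf2 have nearly the same mean on both days with loess.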

How the data were processed

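Per the file headers, the arrays are Agilent rat arrays read in 2 colours with Feature Extraction 9.1.3.1, and the files the authors deposited hold the intensity of 43628 spots per array and channel, with local background. The authors also deposited a table of log2 ratios whose normalization is not stated in the sources used here; it was used as an alternative, and its 20 columns of mean log intensity were not. Mean signals were corrected with normexp (offset 50) and normalized by loess within each array in limma 3.58.1 (R 4.3.3), with 2256 control spots at weight 0 and outlier spots left out. Each ratio was given the direction sprouting over non-sprouting by the labelled dye, and the 2 arrays of an animal were averaged. Of 41012 probes, 36542 passed a brightness filter (marked by the scanner software as above background on a share of 0.5 or more of the 10 arrays in 1 class or both), and 36517 of these were measured in all 5 animals. The brightest probe stood for a gene. The GRCr8 gene table named 10658 probes through an accession, 4647 through a symbol and 3885 through an older name, and 21822 kept the name in the file.

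The 5 animal ratios were tested against 0 with limma's lmFit and eBayes (4 residual and 2.05 prior degrees of freedom, median standard error 0.051), two-sided, with Benjamini-Hochberg adjustment over all genes. Adjusted p-values in the text are from these fits, and the day difference is from a limma fit of 10 animals with a mean per day. Their number limits the precision. Named genes were up to 10 per direction with the smallest p and the same sign on all 10 arrays, up to 3 of each of 36 lists, and the 3 highest and 3 lowest of each animal. Basp1, Atf3, Jun, Bdnf, Igf1, Fezf2, Cux1 and Cux2 were added after their values were seen, as were genes marked so in the text. Some genes that the rule takes are not reported here. The members and lists were chosen with earlier results of these data known, and list shares are descriptions. Alternatives changed the background correction, normalization, filters, probes, moderation, dye orientation and animals in the fit. The fit was also run on simulated ratios with known differences added, and the outcome is not reported here. Cohorts of the days were separate, and same-numbered animals deviated together with r between -0.19 and 0 across genes, so the numbers do not pair them.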

Additional observations from a re-analysis of the deposited data

Results flagged for a closer look

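Of 160 genes and lists looked at, 13 had 1 animal set apart from the other 4 by more than Dixon's critical value of 0.71 of the range, a gap that chance gives in about 1 of 20 groups. Cd74, Ldha, Podxl and Nts were among the 160 because they were farthest from 0 in a single animal, so their gaps follow from that choice and the chance rate does not apply to them. Pf4, Nsdhl, Smad1, Ifit2, Pdgfa and Rps27a were taken for an unadjusted p under 0.05 in the same animals. The chance rate does not hold for these genes either. Animal 3 stood apart in 5 of the 13: the glycolysis gene Ldha at 1.46 (others -0.12 to 0.06), Podxl of vessel lining at -1.71 (others -0.11 to 0.48), the platelet gene Pf4 at -0.33 (others 0.50 to 0.61), the presynaptic list median at 0.11 (others -0.02 to 0.01) and the endothelial and mural list median at -0.32 (others -0.02 to 0.09). Animal 5 stood apart in the neuropeptide gene Nts at 2.88 (others -0.18 to 0.16), the cholesterol synthesis gene Nsdhl at -0.38 (others -0.12 to -0.04) and the astrocyte list median at 0.49 (others -0.10 to 0.06). Animal 2 did so in Cd74 at 2.62 (others -0.34 to 0.38) and Smad1 at -0.08 (others 0.37 to 0.45). Animal 4 did so in Ifit2 at -0.09 (others 0.20 to 0.30) and Pdgfa at 0.04 (others 0.23 to 0.31), and animal 1 in the ribosomal gene Rps27a at -0.21 (others 0.29 to 0.44).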

How the results depend on the processing

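No gene at the adjusted threshold was the outcome under 17 of the 20 alternatives. The exceptions were 1 gene with both days in one fit, 57 genes with the 10 arrays fitted with the animal as a random block (consensus correlation 0.64) and a dye term, and 21 genes on the 5 arrays with sprouting neurons in Cy3 alone. Among the 57 were 9 of the 20 named genes. The 20 were chosen on these same arrays, so nothing is read from the 9. Among the 21 were Prrc2c (0.54), Atp1b1 (1.28), Ndrg4 (1.30) and Ubb (1.24), values of 1 dye orientation that are not averaged over the dye swap. All 21 were higher, and the arrays with sprouting neurons in Cy5 alone gave 0 genes. Genes at an unadjusted p under 0.05 numbered 3533 on the Cy5 arrays alone, 4656 on the Cy3 arrays alone and 1495 where probes had to be well above background on all 10 arrays in both channels, which left 19415 genes; leaving out 1 animal gave 1673 to 3168. Genes with a single sign in every animal numbered 5084 on the Cy3 arrays alone, 1839 with that stricter filter and 4554 to 6423 with 1 of 5 animals left out, where fewer animals have to share a sign. The replicate block, added to the fit of both days, gave 0, 2376 and 2816 genes, against 1, 3101 and 2816 for that fit without it, so 1 call was lost; for the day difference it left 0 of the 20 named genes. The named genes at an unadjusted p under 0.05 for that difference were 8, 6 with the block and 4 with the processed signals. A scan day block could not be fitted, since day 7 arrays were scanned on 5 days with 1 animal on nearly each.

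The 20 named genes kept their sign under all alternatives that tested them except Micu2 (0.02 as the mean of its probes). The 20 were chosen for a single sign on every array and the smallest p. Their sign on the Cy5 arrays alone, on the Cy3 arrays alone and with 1 animal left out is therefore fixed by the choice. Nothing is read from their sign in those alternatives. Sizes moved more. With median centring 17 of the 20 stayed at an unadjusted p under 0.05, which the choice by p favours. Trim2 (0.02), Nup58 (0.10) and Flywch1 (0.14) did not. As the mean of its probes Stim2 was at 0.26, Prrc2c 0.26, Tenm4 0.11, Nup58 0.08 and Htr7 -0.40, and with the processed signals Rasgrp1 was at 0.71, Tenm4 0.38, Sntg2 -0.55 and Trmt9b -0.64. Outside the 20, the processed signals put Pik3r1 at 0.79 (0.41 in the main fit), Rap1gap at 0.68 (0.23), Sirt1 at 0.52 (0.15) and Dync1li1 at 0.71 (0.21). Kcna1 (0.50) and Gsk3b (0.28) hardly moved. Other named genes with another sign were Col4a1 (-0.01), Ndufb5 (-0.08) and Cartpt (-0.09) with median centring, Orai2 (-0.01), Rps27a (-0.30) and Cartpt (-0.08) on the Cy5 arrays alone, and Gap43 (0.03) on the Cy3 arrays alone. Leaving out 1 animal in turn gave A2m -0.38 to 0.19 (positive without animal 1), Ccl2 -0.06 to 0.73 (negative without animal 5), Dse -0.41 to 0.19 (positive without animal 5), Cartpt -0.40 to 0.54 (negative without animal 2 or 5), and, with the other sign without animal 3, Ldha -0.01 to 0.38, Kdr -0.42 to 0.18 and Podxl -0.43 to 0.12. Of 36 list medians, 12 kept their sign in all 20 alternatives, among them deep layer (0.08 to 0.25), myelin (0.12 to 0.49), PI3K (0.01 to 0.07), neuropeptides (-0.10 to -0.03) and sodium and calcium channels (-0.15 to -0.03), and 17 turned with median centring. The cause was not tested.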

Other observations

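Lists of the remaining cell functions lay near the median of all genes with loess. Proteasome genes had 24 of 32 on the higher side and a median of 0.03, with Psmd13 at 0.17 ± 0.14 (0.09 with each array centred on its median), and the median was -0.12 with median centring. Genes of cholesterol synthesis and uptake were divided with loess, 14 on either side, and their median of -0.002 was -0.138 with median centring. Fdft1, which commits to sterols, was at 0.27 ± 0.29 (0.17 centred) and Mvd at -0.10 ± 0.09 (-0.18 centred). Apoptosis genes had 23 of 36 on the lower side and a median of -0.02, with Birc5 at -0.15 ± 0.13 and Bax, which opens the mitochondrial membrane, at -0.07 ± 0.05, below 0 in 5 of 5 animals. Of 56 adhesion and matrix genes 27 were on the higher side. Pcdh19, a protocadherin, had -0.16, -0.39, -0.38, -0.18 and -0.09 and was negative on all 10 arrays, while Cdh13, T-cadherin, had 0.72, 0.51, 0.02, 0.15 and 0.34.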
